A study of Mus musculus with 8 samples.

Results

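The cytosolic ribosomal protein genes encode the protein parts of the ribosome that works in the cytoplasm, and 82 of the 32574 gene rows of the deposited table belong to them. They were chosen by name alone: Rpl or Rps followed by a number, with an optional letter or l suffix, plus Rplp0, Rplp1, Rplp2 and Rpsa, without names holding -ps (pseudogenes) and without the Rps6k kinases. The small subunit supplies 32 of them and the large subunit 50. A filter on low values left 80 for testing, all 32 of the small subunit and 48 of the large. The members left out were Rpl3l, a close relative of Rpl3, and Rpl39l, a close relative of Rpl39. The annotation counts 80 members as protein coding and calls Rps4l and Rpl6l processed pseudogenes.

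The study is about clonal expansion and tissue fluidity in the repair of skin. RNA was sequenced from epithelial cells of mouse skin epidermis, purified by fluorescence-activated cell sorting. There were 4 groups of 2 libraries: the K14 and Lrig1 controls, both labelled WT (wild type), and the K14 and Lrig1 ablation groups, both labelled as ablation of the basal lineage. Krt14, the gene of keratin K14, is a marker of basal epidermal cells and Lrig1 a marker of stem cells of the upper hair follicle, but the sources used here do not give what either name stands for in these groups (the driver of the ablation or the cells that were sorted). Nor do they give the agent, the time after ablation, the strain, the age or the number of animals behind a library. Nothing in the labels says that replicates are separate animals, so a p-value below measures the spread between these libraries alone, which may be technical.

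Each ribosome holds a single copy of most of these proteins, bound to ribosomal RNA, and cells make them in step with each other. Their messages usually start with a C followed by a run of pyrimidines (C and T in DNA letters), the 5′ terminal oligopyrimidine or TOP motif, through which the kinase mTORC1 and the RNA-binding protein LARP1 control their translation and stability. Many of the genes also carry small nucleolar RNAs (snoRNAs) in their introns, guides for the chemical modification of ribosomal RNA. In skin, basal keratinocytes divide and grow, and need new ribosomes for it.

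The promoter table of RefSeq (GRCm38.p6) held 72 promoters for 60 of the members. A C at the annotated start of transcription followed by 4 or more pyrimidines, searched on the transcribed strand only, was found in 13 of the 72 (18.1%), each of a different gene, against 2.51% of all 32851 promoters. Within 10 bases of the start such a run was found in 54.2% of member promoters and 30.7% of all. The windows below run from 15 bases before the start to 15 bases from it, with a run that begins at the start in capitals. The first 6 show the run that most sets these promoters apart from others, and the last 2, Rpl26 and Rps2, are shown because the results below turn on them and their windows hold no such run at the annotated start. The Rps2 window does hold such a run further on, within 10 bases of the start. A match of letters describes the annotated start and is not a measured start site.
Rps6 (chr4:86857353-86857382, minus strand): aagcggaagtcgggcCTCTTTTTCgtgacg
Rpl35 (chr2:39005117-39005146, minus strand): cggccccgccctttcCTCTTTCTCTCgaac
Rpl15 (chr14:18270972-18271001, minus strand): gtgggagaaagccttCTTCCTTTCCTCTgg
Rps18 (chr17:33955651-33955680, minus strand): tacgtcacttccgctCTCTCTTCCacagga
Rpl38 (chr11:114668565-114668594, plus strand): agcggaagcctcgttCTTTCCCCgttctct
Rps27 (chr3:90213634-90213663, minus strand): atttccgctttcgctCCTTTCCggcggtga
Rpl26 (chr11:68901551-68901580, plus strand): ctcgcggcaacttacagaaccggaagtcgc
Rps2 (chr17:24720048-24720077, plus strand): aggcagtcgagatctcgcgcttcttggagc
The run in these windows was 7 bases long in Rps27, 8 in Rpl38, 9 in Rps6 and Rps18, 11 in Rpl35 and 13 in Rpl15.

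The members were scattered over 19 chromosomes, with 14 of them on chromosome 7. Annotated snoRNAs lay inside 29 of the 82 members (35.4%), 56 in all and on the same strand, against 1.69% of the 13481 tested protein-coding genes. Rpl4, a protein that lines the exit tunnel, held 5 of them. Mature messages were short, with a median annotated length of 705 bases against 2772 for tested protein-coding genes.

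Recovered depth was 6458636 to 11654135 reads per library, and 3 reads correspond to a value between 2.12 and 4.23. The replicates of every group differed by more than sampling noise, and far more in the ablation groups (chi-square per gene 29.2 in K14 and 42.8 in Lrig1) than in the controls (1.6 and 2.61). Lrig1 ablation 2 stood apart for the members, so the Lrig1 results of the family and of the members described below are given with and without it. The basal keratin genes Krt5 and Krt14, defining markers of the labelled epithelium, were among the most abundant genes in every library, at or above 28052 normalised reads.

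The members were abundant. Their summed values made up 3.03 and 2.84% of all normalised reads in the K14 control libraries, 2.59 and 3.28% after K14 ablation, 2.85 and 2.86% in the Lrig1 controls and 3.30 and 1.99% after Lrig1 ablation. The control libraries lay within a narrow band, while the ablation groups each held 1 library below and 1 above all controls. Per kb of messenger RNA, the level averaged over the 8 libraries was highest in Rpl32 (10157), Rpl4 (7645) and Rpl41 (6998 normalised reads per kb), all of the large subunit. Among tested protein-coding members it was lowest in Rps27l (1028), Rpl34 (1099) and Rpl27 (1116). The model used for Rps20 was 3706 bases long, so its level per kb (1233) depends on that model.

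**Figure D1:**
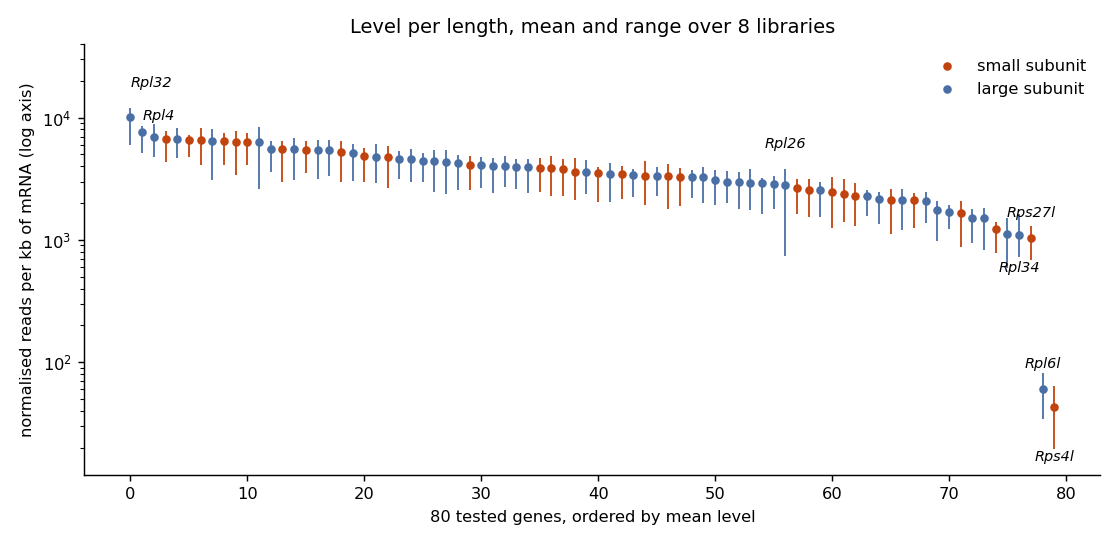
Normalised reads per kb of messenger RNA on a log axis for the 80 tested genes, ordered by mean level from left to right. Points are means over the 8 libraries, bars run from the lowest to the highest library, and colour marks the subunit. Levels ran from 10157 for Rpl32 to 1028 for Rps27l, with Rpl6l (60.1) and Rps4l (43.4) far below the others.

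Close copies were detected at very different levels per length. Rpl36al, a copy of Rpl36a without introns, had 1512 normalised reads per kb against 3329 for Rpl36a, and Rps27l, a copy of Rps27 that p53 is known to induce, had 1028 against 6387. Rps4l reached 43.4 against 6670 for the X-linked Rps4x. Rpl3l, known from heart and skeletal muscle, was at 1.38 per kb with at most 4.44 normalised reads in any library, and Rpl39l, known from testis, was listed at 0 in 7 libraries and at 0.985 in K14 control 2. Counting by the authors could split reads between near-identical copies, so the levels of such pairs are uncertain.

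The members moved together between libraries. Relative to the mean of the K14 controls, the median member was at 0.04 and -0.04 on the log2 scale in the K14 control libraries, -0.19 and 0.18 after K14 ablation, 0.03 and 0.07 in the Lrig1 controls and 0.10 and -0.78 after Lrig1 ablation. The median over all 18140 tested genes stayed between -0.02 and 0.03 in every library. The deposited values are scaled by library, which can itself hold this median near 0, so it is not an independent reference. Scaled to the library total, the median Lrig1 differences were 0.23 for all genes and -0.14 for the members. In Lrig1 ablation 2 all 80 tested members were below the K14 control mean, and the median member stood at 58.4% of it. That library was the lowest of the 8 for 78 of the 80, the exceptions being Rps24 (lowest in K14 ablation 1) and Rpl6l (lowest in K14 ablation 2). The highest library was K14 ablation 2 for 48 of them. Within Lrig1 ablation, replicate 2 was below replicate 1 in 80 of 80 members, with a median difference of -0.87. Within K14 ablation, replicate 2 was above replicate 1 in 76 of 80, with a median of 0.38. Both subunits took part: in Lrig1 ablation the medians of replicate 2 minus replicate 1 were -0.90 for the small and -0.85 for the large subunit, and in K14 ablation 0.45 and 0.33. In bulk RNA, fewer cells with many ribosomal protein messages and fewer such messages per cell cannot be told apart.

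**Figure D2:**
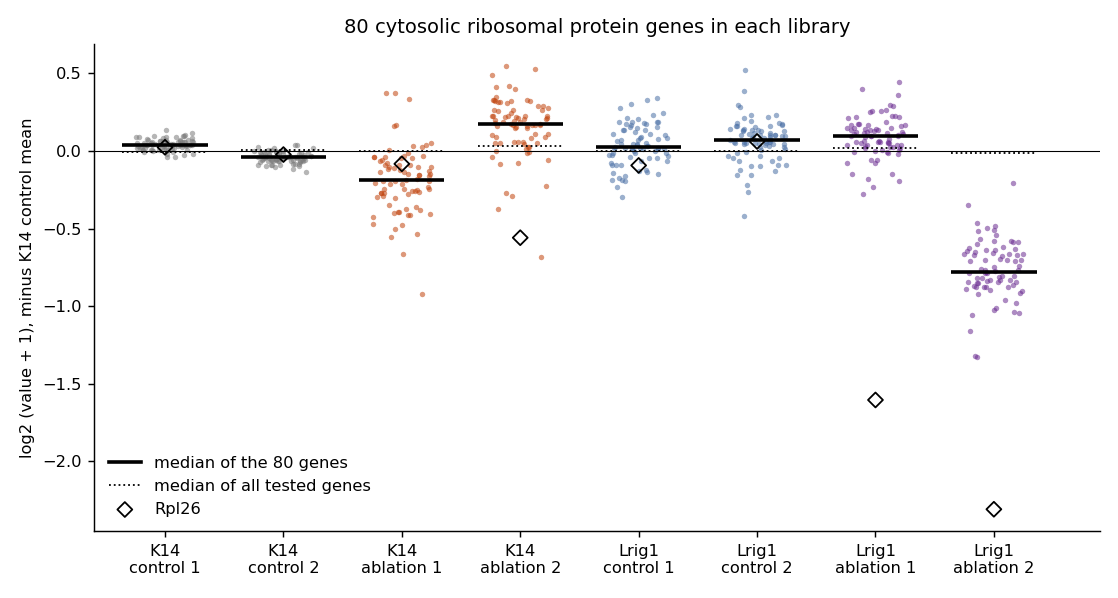
Each point is 1 of 79 tested members and the diamond is Rpl26, as log2(value + 1) in that library minus the mean of the K14 controls. Thick lines are the median of the 80 members (-0.78 in Lrig1 ablation 2) and dotted lines the median of all tested genes.

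Some other measures also differed in Lrig1 ablation 2, where the member values were low, and others did not. The basal keratinocyte markers were lower there than in Lrig1 ablation 1 in 7 of 7 cases, with a median difference of -1.02. Their summed level was 209178 in replicate 1 and 90747 in replicate 2, against 107216 and 116747 in Lrig1 control, 177686 to 180521 in K14 control and 206410 to 214964 in K14 ablation. Member medians were 0.03 and 0.07 in the Lrig1 controls, 0.10 in Lrig1 ablation 1 and -0.78 in Lrig1 ablation 2. Differentiated keratinocyte markers summed to 33585 and 32878 in Lrig1 ablation, but 5 of the 7 were higher in replicate 2, with a median difference of 0.60, and 0 of the 7 markers of either list were at 0 in any library. Endothelial markers summed to 54.1 and 135, fibroblast markers to 764 and 857, myeloid markers to 178 and 186, T cell markers to 298 and 109 and melanocyte markers to 264 and 360 normalised reads in Lrig1 ablation 1 and 2, so each of these lists stayed at or below 857 normalised reads there. Among genes outside the family, the fifth with the shortest messages had a median of -0.00 for replicate 2 minus replicate 1, and the fifth with the highest mean values had -0.13. The fifth with the lowest mean values had 0.50, and the class just above it 0.23. Mitochondrially encoded genes took 3.14% of normalised reads in replicate 1 and 4.14% in replicate 2. The part of the cell mixture and of these shifts in the low values was not tested.

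K14 ablation was compared with its control first. Of the members, 0 of 80 passed an adjusted p of 0.05 in limma, where 0.187% of all tested genes passed. With a share this low, a count of 0 is near the background and does not show that the members were unchanged. At an unadjusted p under 0.05 there were also 0, against 12.8% of all genes. In edgeR 0 passed against 0.176% of all genes, and in DESeq2 0 against 1.21%. The median log2 difference of the members was -0.02, against -0.00 for all genes, with 34 positive and 46 negative, where 49.7% of all genes were positive. It was 0.18 without K14 ablation 1 and -0.19 without K14 ablation 2. The ablation libraries lay wholly above the controls for 4 members (Rps2, Rpl41, Rpl15 and Rpl29), where 27.4% of all genes did so, and wholly below for 7 (among them Rps24, Rps25, Rpl30 and Rpl26), where 25.7% did so.

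Rps24 is a small-subunit protein whose human gene is mutated in some patients with Diamond-Blackfan anaemia. It was at 4658 and 3974 normalised reads in the K14 controls, 2275 and 3676 after K14 ablation, 4882 and 5062 in the Lrig1 controls and 3753 and 2434 after Lrig1 ablation. All 4 ablation libraries were below all 4 control libraries. The log2 difference was -0.57 ± 0.27 in K14 and -0.72 ± 0.27 in Lrig1 (SE; limma adjusted p = 0.425 and 0.192), and -0.41 in Lrig1 without Lrig1 ablation 2. For the mean of both effects it was -0.65 ± 0.19 (limma adjusted p = 0.123), past the threshold in DESeq2 (adjusted p = 0.0343) but not in edgeR (0.16).

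Rps2, a small-subunit protein near the entry site of messenger RNA, had the most positive difference in K14. Its values were 2054 and 2076 in the K14 controls, 2681 and 2903 after K14 ablation, 2225 and 2138 in the Lrig1 controls and 2816 and 1289 after Lrig1 ablation. Of the ablation libraries, 3 lay above every control library, and Lrig1 ablation 2 lay below. The log2 difference in K14 was 0.43 ± 0.31 (SE; limma adjusted p = 0.591). When Lrig1 ablation 2 was left out, Rps2 passed in K14 (limma adjusted p = 0.0473) and for the mean effect (0.40, adjusted p = 0.0134). It was then the 1 member called in K14, where 2.04% of all genes passed as higher, and also without Lrig1 ablation 1, where 1.8% did. Rpl41, the smallest ribosomal protein, was at 2662 and 2641 in the K14 controls, 2980 and 3872 after K14 ablation, 3271 and 3459 in the Lrig1 controls and 3498 and 2082 after Lrig1 ablation. Its log2 difference in K14 was 0.36 ± 0.25 (SE; limma adjusted p = 0.577).

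**Figure D3:**
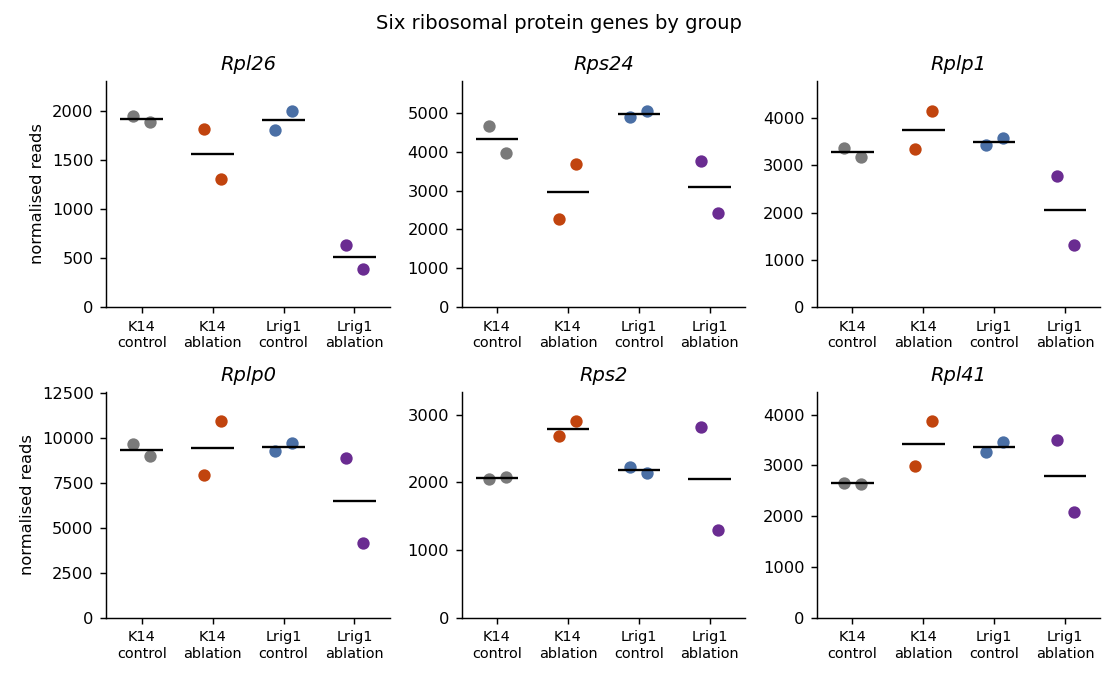
Normalised reads, on axes that start at 0, of 6 members in the 4 groups. Points are the libraries (replicate 1 left, replicate 2 right) and lines the group means. Rpl26 in Lrig1 ablation (631 and 387) lay far below the other libraries, the lowest of which was 1304.

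The same comparison was made for the Lrig1 groups. Here 1 member fell, Rpl26, and 0 rose, where 3.3% of all tested genes passed as lower and 0.766% as higher (limma). At an unadjusted p under 0.05 there were 3 members, all lower (Rpl26, Rplp1 and Rps24), against 12.1% of all genes. Every one of the 80 log2 differences was negative, against 51.6% of all genes, with a median of -0.39 against -0.02 for all genes. Other lists differed in the same comparison. Mitochondrially encoded genes were lower in 35 of 35 (median -1.06, 4 past the threshold), endothelial markers in 8 of 8 (median -4.52, 6 past), differentiated keratinocyte markers in 7 of 7 (median -2.03, 4 past) and myeloid markers in 8 of 8 (median -2.57, 2 past). Basal keratinocyte markers were higher in 7 of 7, with a median of 0.45 and 0 past the threshold. Both ablation libraries lay above both controls in 2 of these 7, where 21.4% of all genes did so. The basal median was 0.997 without Lrig1 ablation 2. The summed basal level of that library (90747) was below both Lrig1 controls (107216 and 116747). The part of these lists in the member values was not tested. Without Lrig1 ablation 2 the member median was 0.05, with 52 positive and 28 negative. Without Lrig1 ablation 1 it was -0.82. Either refit leaves 1 library in the Lrig1 ablation group, so no count of calls is given for it. Both ablation libraries lay below both controls in 22 members, or 27.5%, against 26.4% of all genes, and above in 0 against 21.4%. With values scaled to the library total, which shifts the median of all genes to 0.23, the member median was -0.14 and 4 members lay wholly below, and with TMM factors 11 did.

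Rpl26 (ENSMUSG00000060938, GRCm38 chromosome 11, 68901583 to 68906989, plus strand) encodes a large-subunit protein near the exit tunnel that is also known to bind the p53 message and raise its translation. It was at 1953 and 1890 normalised reads in the K14 controls, 1813 and 1304 after K14 ablation, 1801 and 2005 in the Lrig1 controls and 631 and 387 after Lrig1 ablation. Both Lrig1 ablation libraries were far below every other library, and both K14 ablation libraries were below both K14 controls. The group mean went from 1903 ± 144 to 509 ± 173 on Lrig1 ablation (SD, n = 2 each).

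The log2 difference of Rpl26 in Lrig1 was -1.94 ± 0.25 (SE; limma adjusted p = 0.0084). It was also past the threshold in edgeR (adjusted p = 0.0118) and DESeq2. In K14 it was -0.32 ± 0.25 (limma adjusted p = 0.619), and the difference between these effects was -1.62 ± 0.35 (limma adjusted p = 0.104), which passed in DESeq2 (0.0035) but not in edgeR (0.122). Leaving out single libraries gave -2.29 to -1.59 for the Lrig1 effect, which no longer passed without Lrig1 control 1 (adjusted p = 0.103) or Lrig1 control 2 (0.152).

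Rpl26 stood below the other members in both Lrig1 ablation libraries. Measured from the median member of the same library, it stood at -1.70 in Lrig1 ablation 1 and -1.53 in Lrig1 ablation 2, at -0.74 in K14 ablation 2 and at 0.10 in K14 ablation 1. Scaled so that the median member is equal in all libraries, its Lrig1 difference was -1.54 with an adjusted p of 0.0838 in limma. Rpl26 holds no annotated snoRNA and overlaps no other row. The 1 tested pseudogene row that bears its name, Rpl26-ps4, had at most 10.3 normalised reads in any library. Of its annotated neighbours, Ndel1, a gene of the dynein pathway, was at 1355 and 1277 in the K14 controls, 894 and 733 after K14 ablation, 1613 and 1772 in the Lrig1 controls and 729 and 1172 after Lrig1 ablation, lower after ablation in both.

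The P proteins form the stalk of the large subunit that recruits translation factors, and Rplp1 and Rplp0 were among the 4 members with the lowest Lrig1 differences, with Rpl26 and Rps24. Rplp1 was at 3365 and 3185 in the K14 controls, 3346 and 4158 after K14 ablation, 3420 and 3578 in the Lrig1 controls and 2783 and 1312 after Lrig1 ablation. Both Lrig1 ablation libraries lay below all others. Its log2 difference was -0.87 ± 0.31 in Lrig1 and 0.19 ± 0.31 in K14 (SE; limma adjusted p = 0.166 and 0.834), and -0.33 in Lrig1 without Lrig1 ablation 2. Rplp0, the base of the stalk and a common reference gene in quantitative PCR, was at 9665 and 9025, 7955 and 10939, 9274 and 9734, and 8868 and 4170 in the same order of groups. Its log2 difference in Lrig1 was -0.64 ± 0.33 (limma adjusted p = 0.329), and -0.10 without Lrig1 ablation 2. Rplp2 was at -0.42 ± 0.27, close to the median member, and at 0.02 without that library. The differences nearest 0 were those of Rpl29 (-0.18 ± 0.18), Rps2 (-0.20 ± 0.31) and Rps26 (-0.20 ± 0.20), and without that library these were at 0.09, 0.37 and 0.08.

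**Figure D4:**
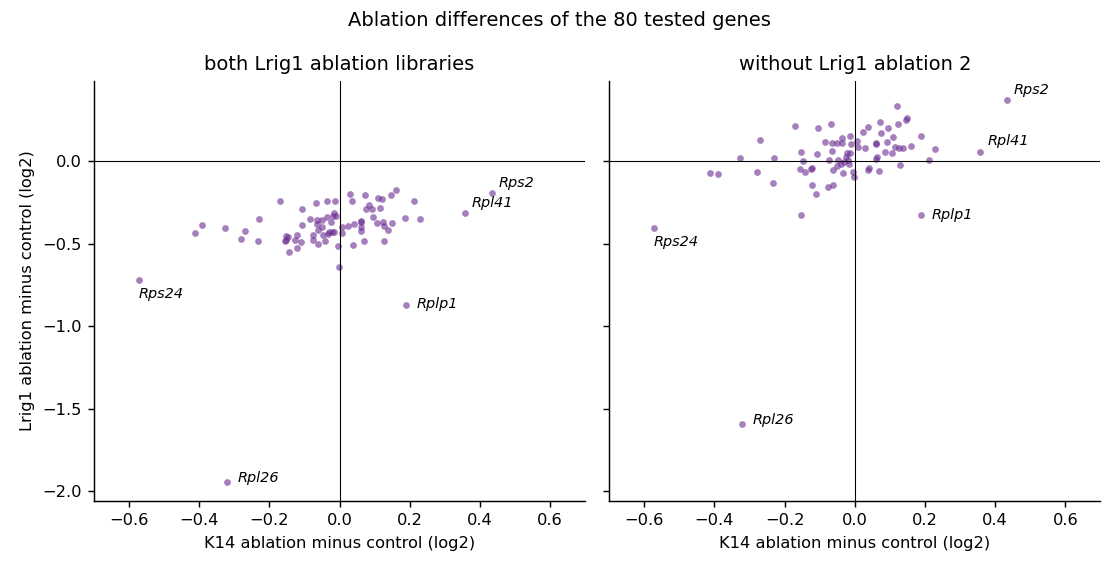
Log2 difference of ablation minus control in K14 (horizontal axis) and in Lrig1 (vertical axis) for the 80 tested members, with both Lrig1 ablation libraries (left) and without replicate 2 (right). The cloud moved from a median of -0.39 to 0.05 on the vertical axis, and Rpl26 stayed at the bottom (-1.94 and -1.59).

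Several members have known roles outside the ribosome or in disease. Rpl5, Rpl11 and Rpl23 can bind and inhibit Mdm2, the ligase that marks p53 for destruction. In Lrig1 they were at -0.41 ± 0.30, -0.51 ± 0.26 and -0.37 ± 0.24, and in K14 at -0.33 ± 0.30, 0.04 ± 0.26 and 0.06 ± 0.24 (SE). Rpl5 held 4828 and 5000 normalised reads in K14 control and 3099 and 4949 in K14 ablation, so 1 library made most of its K14 value. Rps6, the substrate of S6 kinase, was at -0.34 ± 0.30 in Lrig1 and -0.04 ± 0.30 in K14. Rpsa, also called the laminin receptor, was at -0.55 ± 0.33 and -0.14 ± 0.33, Rps3, which also takes part in DNA repair, at -0.34 ± 0.31 and 0.09 ± 0.31, and Rpl13a, a translational silencer in inflammation, at -0.48 ± 0.27 and -0.13 ± 0.27. Rps19, the gene most often mutated in Diamond-Blackfan anaemia, was at -0.50 ± 0.23 and -0.06 ± 0.23, and Rps27a, made as a fusion with ubiquitin, at -0.42 ± 0.33 and -0.27 ± 0.33. Rpl22 was at -0.35 ± 0.24 and -0.23 ± 0.24, and Rpl10, on the X chromosome, at -0.29 ± 0.25 and 0.09 ± 0.25. None of these 11 passed (limma adjusted p from 0.268 to 0.971). Their Lrig1 values rest on Lrig1 ablation 2: without it they lay between -0.15 (Rps19) and 0.20 (Rps3), with Rpl5 at 0.02, Rpl11 at -0.05 and Rpl23 at 0.01. In K14, Rpl5, Rpsa, Rpl13a, Rps27a and Rpl22 lay below the lower quartile of the members, which was -0.11. As for Rpl5, K14 ablation 1 made most of these values. Relative to the K14 control mean, K14 ablation 1 and 2 were at -0.50 and 0.22 for Rpsa and -0.28 and 0.02 for Rpl13a. They were at -0.53 and -0.00 for Rps27a and -0.42 and -0.04 for Rpl22.

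Averaged over K14 and Lrig1, the ablation effect on the members had a median of -0.20 against -0.01 for all genes, and 0.02 without Lrig1 ablation 2. Rpl26 passed, at -1.13 ± 0.17 (SE; limma adjusted p = 0.0174), as 1 of 80 members lower, where 2.02% of all genes were lower. At an unadjusted p under 0.05 there were 4 lower, Rpl26, Rps24, Rps25 and Rpl30, against 10.6% of all genes. For the last 2 of these the effects were -0.42 ± 0.17 and -0.39 ± 0.15 (limma adjusted p = 0.222 and 0.204), and -0.24 for both without Lrig1 ablation 2. Leaving out Lrig1 ablation 1 brought 25 members past the threshold as lower, against 6.57% of all genes, and leaving out any of the control libraries brought 0. The Lrig1 effect minus the K14 effect passed in 0 of 80 members, where 0.198% of all genes passed (limma). At an unadjusted p under 0.05 there were 2 members against 15% of all genes. In edgeR 0 passed against 0.176% of all genes, and in DESeq2 1, Rpl26, against 1.7%. Without Lrig1 ablation 1 there were 34 lower in limma, against 7.94% of all genes. Over the 80 members, which share libraries and a common shift, the K14 and Lrig1 differences had a Pearson correlation of 0.38 and a Spearman correlation of 0.46, given as a description.

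Lrig1 control against K14 control shows the family without ablation. The members differed little: the median log2 difference was 0.06 against -0.00 for all genes, and 0 of 80 passed, where 8.79% of all genes did (limma). At an unadjusted p under 0.05 there were 0 against 24.4%, in edgeR 0 against 7.7% and in DESeq2 0 against 8.93%. Both Lrig1 controls lay above both K14 controls in 35 members against 34.5% of all genes, and below in 12 against 34.4%. Scaled to library totals these counts became 12 and 28, so the direction depends on the scaling. The largest values were those of Rpl6l (0.43 ± 0.37), Rpl41 (0.34 ± 0.25) and Rpl23a (0.32 ± 0.22), and the smallest those of Rps4l (-0.36 ± 0.42), Rpl27 (-0.22 ± 0.32) and Rpl3 (-0.17 ± 0.29). Fitted on the 4 control libraries alone, which agree closely, 14 members passed, 11 higher and 3 lower, where 40.1% of all genes did. Rpl23a, a protein at the exit tunnel, was at 3662 and 3637 in K14 control and 4630 and 4474 in Lrig1 control. Mitochondrially encoded genes took 6.29 and 6.89% of normalised reads in Lrig1 control and 2.91 and 2.90% in K14 control, and without them in the total the member share was 3.05 and 3.07% in Lrig1 control against 3.12 and 2.92%.

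Lrig1 ablation against K14 ablation gave 1 member lower, where 0.204% of all genes were lower (limma). It was again Rpl26, at -1.64 ± 0.25 (SE; limma adjusted p = 0.0358). The call was lost without either K14 control library, either Lrig1 control library, K14 ablation 1 or Lrig1 ablation 2 (adjusted p from 0.0519 to 0.123). The member median was -0.32, and 0.12 without Lrig1 ablation 2. Without Lrig1 ablation 1 the median was -0.74, from a fit with 1 library in that group. Groups did not overlap in 5 members, all lower (20% of all genes): Rpl26, Rplp1, Rpl34, Rpl35a and Rpl29.

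Other genes of the translation machinery were read from lists written with earlier results of these data known. The list of translation factors with TOP messages (elongation and initiation factors and related genes) had 0 of 22 past the threshold in K14 and in Lrig1, where 0.187% of all genes passed in K14 and 3.3% as lower and 0.766% as higher in Lrig1. With shares this low, a count of 0 in a list of this size is near the background, as are the counts of 0 in the lists that follow. In Lrig1 ablation its members were lower in replicate 2 than in replicate 1 in 21 of 22 cases, with a median of -0.89, next to -0.87 for the ribosomal proteins. In K14 ablation they had 0.09 for the same difference, next to 0.38. Of 6 tested ribosomal proteins and close copies that the naming rule does not catch, all were lower in replicate 2 than in replicate 1 of Lrig1 ablation, with a median of -0.78, and 4 were higher in replicate 2 of K14 ablation. They differed among themselves in K14, from Rpl22l1 at -0.52 to Rpl7l1 at 0.31, and 0 passed. Rps3a1, which is not in that list, was at 5638 and 5355, 3959 and 5079, 5598 and 5750, and 5906 and 3009 in the groups as ordered above. Fau and Rack1 were also lowest in Lrig1 ablation 2, while Rps27rt was lowest in K14 ablation 2 (83.6, against 88.4 in Lrig1 ablation 2). Ribosome biogenesis factors (43 genes) and the machinery of RNA polymerase I (20 genes), which makes ribosomal RNA, had 0 past the threshold in either ablation comparison, and medians of -0.37 and -0.28 for replicate 2 minus replicate 1 in Lrig1 ablation.

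The mTORC1 and MYC list (24 genes) had a median of -0.00 for that difference, and 0 passed in either ablation comparison. Larp1, which binds TOP messages, was at 0.23 ± 0.17 in K14 and -0.09 ± 0.17 in Lrig1, Mtor at 0.13 ± 0.13 and 0.05 ± 0.13, and Myc, an activator of ribosome genes, at -0.65 ± 0.18 and -0.13 ± 0.18 (SE; limma adjusted p from 0.229 to 0.875). Between the controls, biogenesis factors were lower in Lrig1: 5 of 43 fell and 0 rose, where 2.27% of all genes passed as lower and 6.52% as higher. Among them were the snoRNP proteins Nop56 by 0.77 ± 0.16 and Nop58 by 0.69 ± 0.16, and the nucleolar GTPase gene Gnl3 by 0.73 ± 0.15 (limma adjusted p from 0.0219 to 0.0367 over the 5). Myc also fell, by 0.89 ± 0.18 (limma adjusted p = 0.0227). In the mTORC1 and MYC list 2 genes rose, Max, the partner of MYC, by 0.62 ± 0.16 and Tsc2, an inhibitor of mTORC1, by 0.60 ± 0.12 (limma adjusted p = 0.0474 and 0.0254), and the median of that list was 0.04 with 13 of 24 positive. In the translation factor and RNA polymerase I lists 1 gene each fell, and 0 rose. The biogenesis median was -0.35 there, next to 0.06 for the cytosolic ribosomal proteins. The calls of the 5 biogenesis factors, Myc, Max and Tsc2 were all lost when any 1 of the 4 control libraries was left out (adjusted p from 0.108 to 0.306) and when values were scaled to the member median (0.138 to 0.608). Nop58, Wdr12, Wdr43 and Max did not pass without the filter on low values (0.0551 to 0.0724), Wdr12 did not in DESeq2 (0.0679), and Max did not in edgeR (0.0578), DESeq2 (0.0922), with TMM factors (0.0528) or scaled to the library total (0.0944). The Lrig1 control libraries also carried more endothelial marker reads (965 and 1067 summed, against 85.3 and 69.9 in K14 control) and more differentiation marker reads (104522 and 118455, against 68652 and 63928). Fibroblast markers were higher there in 6 of 6 (median 1.96), myeloid in 8 of 8 (2.12) and melanocyte in 3 of 4 (0.27). Basal keratinocyte markers were lower in 6 of 7 (median -0.80) and T cell markers in 3 of 3 (-1.66). The part of these marker lists was not tested.

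Mitochondrial ribosomal proteins, encoded in the nucleus for the ribosome of the organelle, differed from the cytosolic set in K14 ablation in their counts. Of 78 genes 67 had positive log2 differences with a median of 0.21, against 49.7% of all genes positive, and both ablation libraries lay above both controls in 39, against 27.4% of all genes. The cytosolic members had 34 positive of 80, a median of -0.02 and 4 above. Single genes past the threshold numbered 0 in both sets (limma; 5 mitochondrial and 0 cytosolic members at an unadjusted p under 0.05), and the difference between the sets was not tested. In Lrig1 ablation the mitochondrial set had a median of -0.60 for replicate 2 minus replicate 1 with 70 of 78 lower. The Lrig1 difference had a median of -0.01, and 0.25 without replicate 2.

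**Figure D5:**
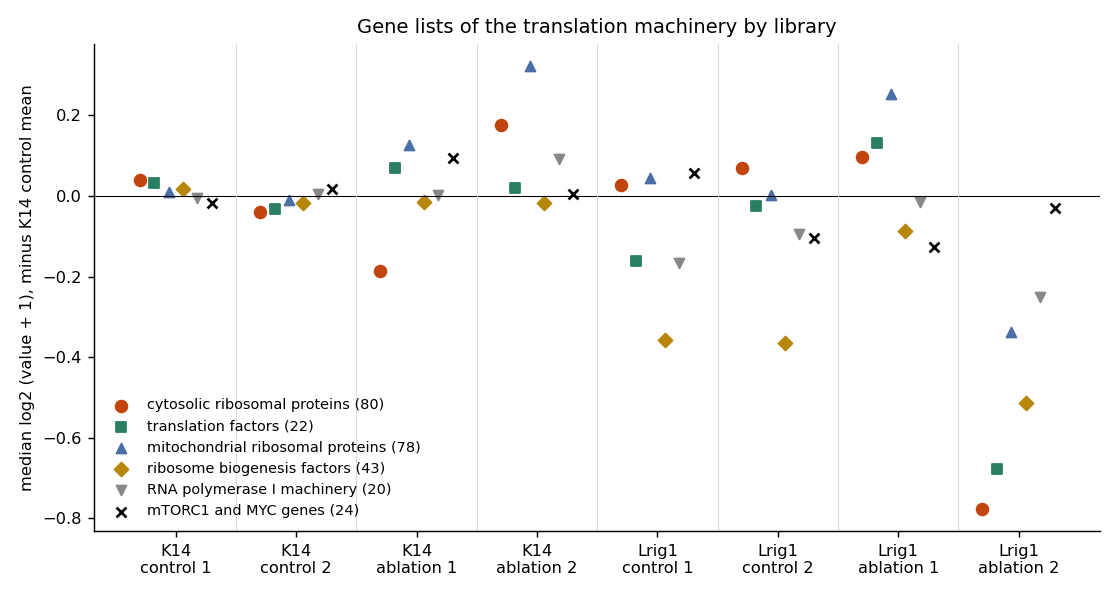
Median log2(value + 1) of 6 gene lists in each library, minus the K14 control mean, with the number of tested genes in brackets. In Lrig1 ablation 2 the cytosolic ribosomal proteins (-0.78) and the translation factors (-0.68) were the lowest of the lists drawn and the mTORC1 and MYC genes (-0.03) were near 0, and in both Lrig1 controls the biogenesis factors (-0.36 and -0.37) were the lowest of them.

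The 13 members with a pyrimidine run at the annotated start, shown above for 6, were set beside 45 tested members with a promoter entry and no such run. In Lrig1 the medians were -0.38 and -0.37, and in K14 -0.01 and -0.00. A run within 10 bases of the start was found in 54.2% of member promoters, so members without a run at the annotated start may still carry the motif. The comparison therefore cannot separate messages with and without it. Across the 80 members the Lrig1 difference had a Spearman correlation of 0.01 with message length and -0.13 with mean value, as descriptions over genes, which are not independent.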

How the data were processed

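Gene expression was measured by RNA sequencing (polyA RNA, RNeasy Micro, Ovation Solo libraries, per the labels' protocols). Per the submitters' processing notes, Trimmomatic, STAR, Picard and HTSeq 0.11.1 were used on GRCm38 (mm10); the sources used here name no normalising program, annotation release or strand setting. Deposited values are normalised signal by gene: in every library 100% were whole multiples of the value of 1 read (tolerance 0.001), and these reads were recovered for count tests. The 4 ablation columns are named in other words than the labels and were matched by population and number. The main test was limma 3.58.1 (R 4.3.3) with a variance trend on log2(value + 1), which understates changes of low genes, with all 8 libraries in 1 fit of 4 group means (4 residual and 4.13 prior degrees of freedom). The 18140 genes with 1e-06 of a library's total in 2 or more libraries were tested, with Benjamini-Hochberg adjustment over all of them and a threshold of 0.05. Alternatives were edgeR 4.0.16 and DESeq2 1.42.0 on recovered reads, other pseudocounts, filters and scalings, array weights, the replicate block and single libraries left out; scaling to the member median was added after seeing the data. The fitting script was tested on simulated data. Named genes were members past the threshold, the 3 highest and lowest per comparison, members with known roles, copies and the extremes of level. A few single genes are not reported here. Members and lists were chosen with earlier results of these data known. Coordinates and lengths (the shortest principal transcript) come from GENCODE M21, and promoters from RefSeq. Depth and floors cover counting error only.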

Additional observations from a re-analysis of the deposited data

How the results depend on the processing

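The counts and medians of the members were computed again under the alternatives: 222 such values stayed within the margin used (1.5 times for a count, the spread of the groups for a median) and 46 did not. Leaving out single libraries gave 0 to 1 members past the threshold in K14 (Rps2), 0 to 67 in Lrig1, 0 to 25 for the mean effect, 0 to 34 for the difference of effects, 0 to 60 for Lrig1 against K14 ablation and 0 between the controls. Over the same refits the member medians ran from -0.82 to 0.046 in Lrig1, -0.43 to 0.02 for the mean effect, -0.78 to 0.056 for the difference and -0.74 to 0.12 for Lrig1 against K14 ablation. Scaling to the member median, which sets the typical member to 0 by construction, gave medians of 0.0097 in Lrig1 and 0.071 for the difference, and 0 members in Lrig1, for the mean effect and for Lrig1 against K14 ablation. Rpl26 was then at -1.54, -0.95 and -1.30 in these 3 comparisons (limma adjusted p = 0.0838, 0.114 and 0.169). Scaled to the library total, groups did not overlap in 4 members lower in Lrig1, 3 lower in Lrig1 against K14 ablation, and 12 higher and 28 lower between the controls, and with TMM factors in 11 lower in Lrig1. DESeq2 called 2 members for the mean effect and 1 for the difference, array weights 1 for the difference and 2 between the controls (Rpl23a and Rpl41), and a fit of only the compared groups 14 between the controls and 0 for Lrig1 against K14 ablation. The shares of Lrig1 control 1 and 2 were 3.05 and 3.07% without mitochondrial rows and 2.94 and 2.94% with the -ps rows. Deviations of same-numbered libraries correlated between -0.0491 and 0.0838. That gives no sign of pairing by replicate number, but 2 libraries a group cannot exclude it. With the replicate block 1 member passed in Lrig1, for the mean effect and for Lrig1 against K14 ablation and 0 elsewhere, while genes past the threshold went from 737 to 504 in Lrig1. Why these values moved was not tested. With 2 libraries a group, a difference as small as that of most members could not be told from their spread.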

Other observations

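Many members overlap another row of the table in their coordinates. In all, 91 rows overlap 45 of the members, and 7 of them hold over 50% of the member's mean value. Among these, Gm28037 was at about the same value as Rpl24, Flt3l, a cytokine gene, at 97.6% of Rpl13a, Tlcd1 at 87.8% of Rpl23a and Wdr38 at 71.3% of Rpl35. Ndst1 was at 67.0% of Rps14 and Tmtc1 at 59.5% of Rps4l. The ratio of Flt3l to Rpl13a stayed between 95.8 and 98.5% in all 8 libraries, and that of Tmtc1 to Rps4l ranged from 20 to 274%. Gm28037 and Flt3l lie on the same strand as Rpl24 and Rpl13a, so the strand cannot separate their reads from those of the members. Tlcd1, Wdr38, Ndst1 and Tmtc1 lie on the strand opposite to their members. The sources used here do not say whether counting used the strand, and without it the reads of such opposite-strand genes cannot be told apart either.

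Pseudogene rows added little to the total. The table holds 238 rows with ribosomal protein names and -ps, of which 97 were tested, and they made up 0.0677 to 0.0982% of normalised reads. The most abundant, Rps24-ps3, was at 1055 and 941 in K14 control and 1085 and 825 in K14 ablation, where Rps24 itself was at 4658 and 3974 and at 2275 and 3676. Rpsa-ps10 went the other way from the family: it was at 129 and 90.6 in the K14 controls, 1053 and 1036 after K14 ablation, 172 and 164 in the Lrig1 controls and 848 and 243 after Lrig1 ablation. Its mean ablation effect was 2.34 on the log2 scale (limma adjusted p = 0.0148), the 1 of the 97 rows past the threshold in that comparison, and it was lost without any 1 of the 4 control libraries (adjusted p from 0.082 to 0.104). It was chosen for mention after its values were seen. Rpsa itself was at 5877 and 5685 in K14 control and 4076 and 6723 in K14 ablation. Rps3a3, a copy of Rps3a1 outside the naming rule, was at 282 and 261 in the K14 controls, 19.1 and 309 after K14 ablation, 186 and 244 in the Lrig1 controls and 38.2 and 31.8 after Lrig1 ablation, and was also chosen after its values were seen.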
